A study of Mus musculus with 8 samples.

Results

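Of 8 bulk RNA-seq libraries from MC38 tumors, 3 carried more than 10% of their counts on Rn45s, the precursor transcript of ribosomal RNA, and 5 carried less. The libraries were chosen by this share alone, which is the Rn45s count divided by the total count of the column, and light treatment played no part in the choice. The Rn45s-rich libraries were photoconverted tumor 4 (21.9%), control tumor 4 (23.2%) and control tumor 2 (35.7%). The Rn45s-poor libraries were control tumor 1 (2.70%), photoconverted tumor 1 (4.14%), photoconverted tumor 3 (4.60%), control tumor 3 (4.70%) and photoconverted tumor 2 (9.65%). Photoconverted tumor 2 lay just inside the poor class and photoconverted tumor 4 was the nearest library above the 10% mark. Rn45s itself was then left out, so that every value below refers to the other genes.

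All 8 tumors grew in 9-week-old female B6 Kaede mice given 250000 MC38 cells, a colon adenocarcinoma line. The Kaede protein these mice express turns from green to red fluorescence under violet light. On day 10 the 4 photoconverted tumors received 405-nm light for 3 min and the 4 control tumors received none, and all were stored in RNAlater 5 h after that exposure. RNA was extracted on a QiaCube, and the kit for stranded total RNA is given as SMARTER in the labels and as TruSeq in the methods of the study. The mice carried no other stated allele, and no RNA integrity value or extraction batch is given in the sources used here. Epithelial markers were scarce, with 7 of 16 listed genes high enough to be tested and a summed level of 11.3 to 17.3 CPM in every library, where CPM are TMM-scaled counts set to a common library size.

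RNA polymerase I transcribes the 45S precursor in the nucleolus, where it is cut into the 18S, 5.8S and 28S ribosomal RNAs. Small nucleolar RNAs (snoRNAs) guide chemical modification of the precursor, C/D box snoRNAs for ribose methylation and H/ACA box snoRNAs for pseudouridylation, and many are released from introns of host genes. Assembly factors and the RNA exosome then trim and fold the pre-ribosomal particles, and polymerase III supplies other small structured RNAs. Total RNA libraries are normally depleted of mature ribosomal RNA before sequencing, and Rn45s annotation includes the mature sequences, so that its counts can come from precursor and from mature RNA alike.

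The Rn45s-rich libraries were also the shallowest, with 12576615 to 19496945 counts against 22695586 to 35844417 in the poor ones. At an equal depth of 8081939 counts, 16423 to 16706 genes were expected to have a count in rich libraries and 16906 to 17444 in poor ones. By replicate number, all 4 even-numbered libraries had a higher Rn45s share than all 4 odd-numbered ones, and the labels give no meaning to the numbers. Dividing the libraries at a share of 0.05 in place of 0.10 gives exactly this even and odd grouping, and 4611 genes were then called. The part of depth in the results was not tested.

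**Figure D1:**
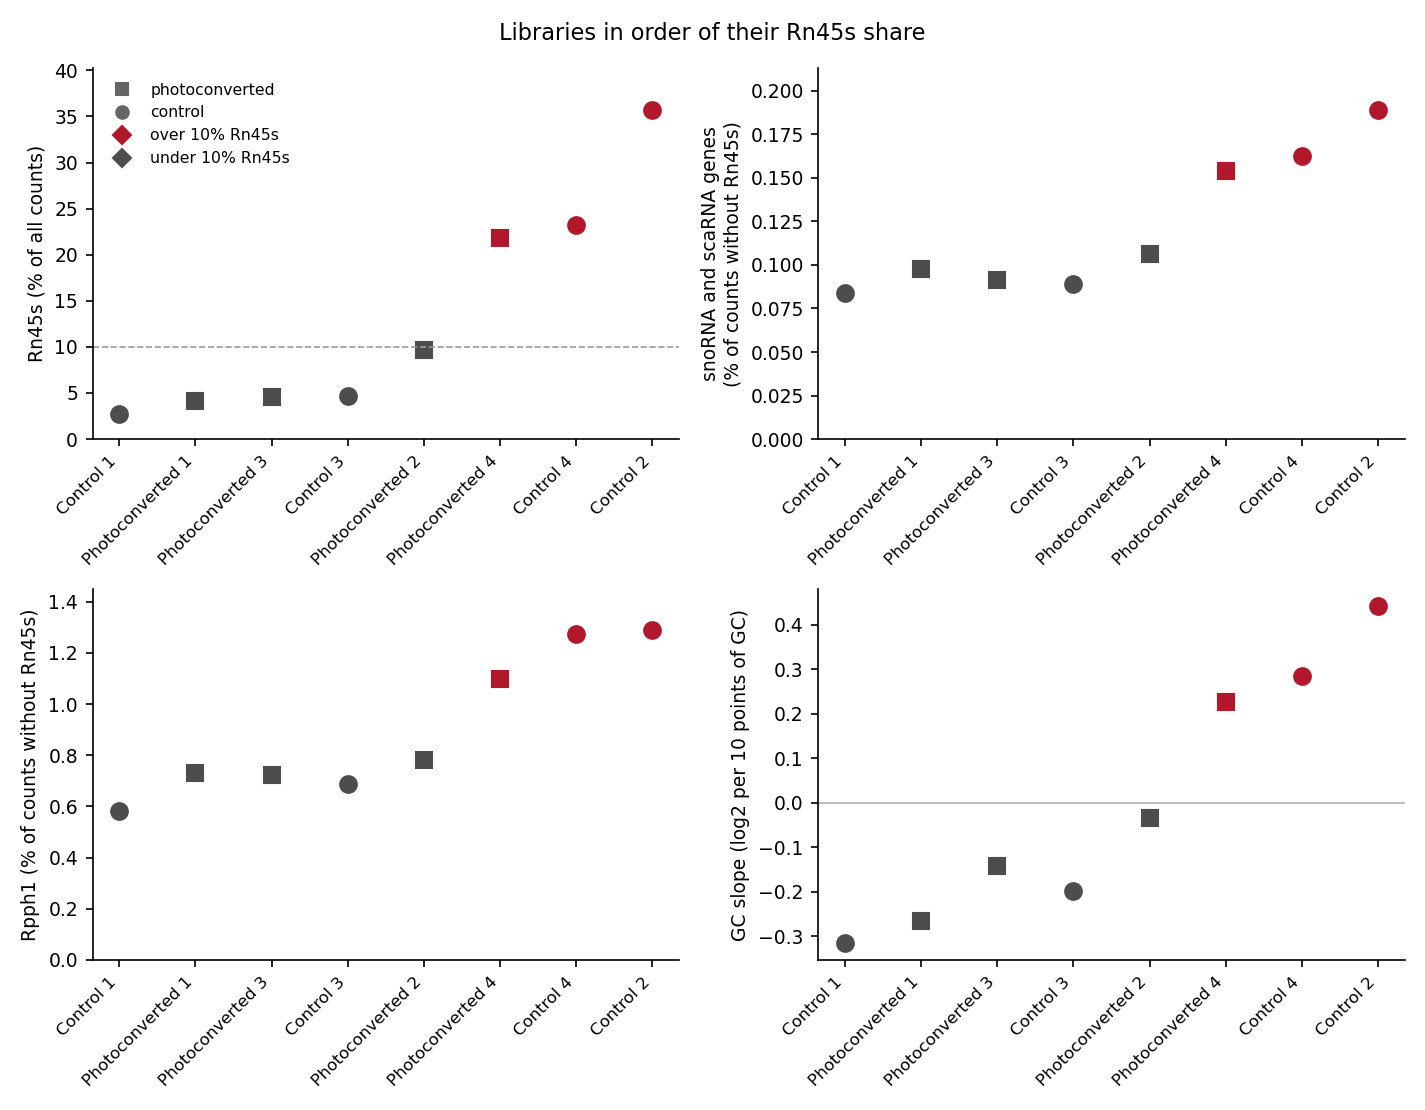
The 4 panels show each library in order of Rn45s share. They give the Rn45s percentage of all counts, and the snoRNA and scaRNA percentage and the Rpph1 percentage of counts without Rn45s. The last panel gives the slope on GC content of log2 level relative to the mean of the 8 libraries. Squares are photoconverted and circles control tumors, red marks libraries over 10% Rn45s, and in every panel the 3 red points lie above all 5 grey ones.

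Rich and poor libraries differed across much of the transcriptome. edgeR's quasi-likelihood test with the light group as covariate called 6117 of 14577 genes (42%) at an adjusted p under 0.05, with 3280 higher (22.5%) and 2837 lower (19.5%) in the rich libraries. The CPM ranges of the 3 rich and 5 poor libraries did not overlap for 6421 genes (44%). The classes were taken from these same libraries with results already known, so these calls describe how the libraries differ, and they are not an independent test. With the replicate number added as a block, 229 genes (1.57%) were called, and in that fit the class rests on the tumors numbered 2, the only number with 1 library of each class. In that fit the medians of 26 of the 50 gene lists examined changed sign, while those of the snoRNA, H1, H4 and H2B lists did not. The histone H1 median nevertheless fell from 0.83 to 0.13 and that of H4 from 0.99 to 0.155. The snoRNA and scaRNA median was 0.48 and that of H2B -1.40.

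The class difference ran mostly the same way in both light groups. The 4 control libraries alone (2 rich, 2 poor) and the 4 photoconverted libraries alone (1 rich, 3 poor) share no library, and their log2 differences correlated with r = 0.601 across the 14577 genes, with the same sign for 80.8%. Genes are not independent replicates, so no p is given. The control libraries alone gave 2428 calls and the photoconverted ones 15, and of the 2428 genes 99.1% had the same sign in the photoconverted libraries. edgeR called 0 genes for an interaction of light and class, 614 had p under 0.05 before adjustment, and the smallest adjusted value was 0.159. Scored on genes called without it, photoconverted tumor 2 lay 32.6% of the way from the poor to the rich mean, whereas the other poor libraries lay between -13.1% and 11.1% and the rich ones between 75.3% and 87.6%.

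GC content ran with the difference. The choice of libraries used no GC values, but whether the Rn45s share is itself independent of GC was not tested. Over 5 equal bins of genes by the GC content of their GENCODE transcript, the median log2 difference (rich minus poor) rose in steps from -0.46 in the lowest bin (29.6% to 44.2% GC) through -0.17, -0.01 and 0.17 to 0.44 in the highest (56.0% to 80.0% GC). In the lowest bin 49.8% of genes were called lower and 2.67% higher, and in the highest 50.0% were called higher and 1.84% lower. Transcript length was a weaker feature, with medians from 0.10 in the shortest bin to -0.14 in the longest. For single libraries, log2 levels were taken as deviations from the mean of the 8 libraries. Their slope per 10 points of GC was 0.23, 0.44 and 0.28 in the rich libraries and -0.31 to -0.03 in the poor ones. Such slopes are relative to that mean, so that slopes of both signs follow from the construction. Across the 8 libraries the slopes followed the order of the Rn45s shares apart from photoconverted tumor 3 and control tumor 3, which were exchanged.

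**Figure D2:**
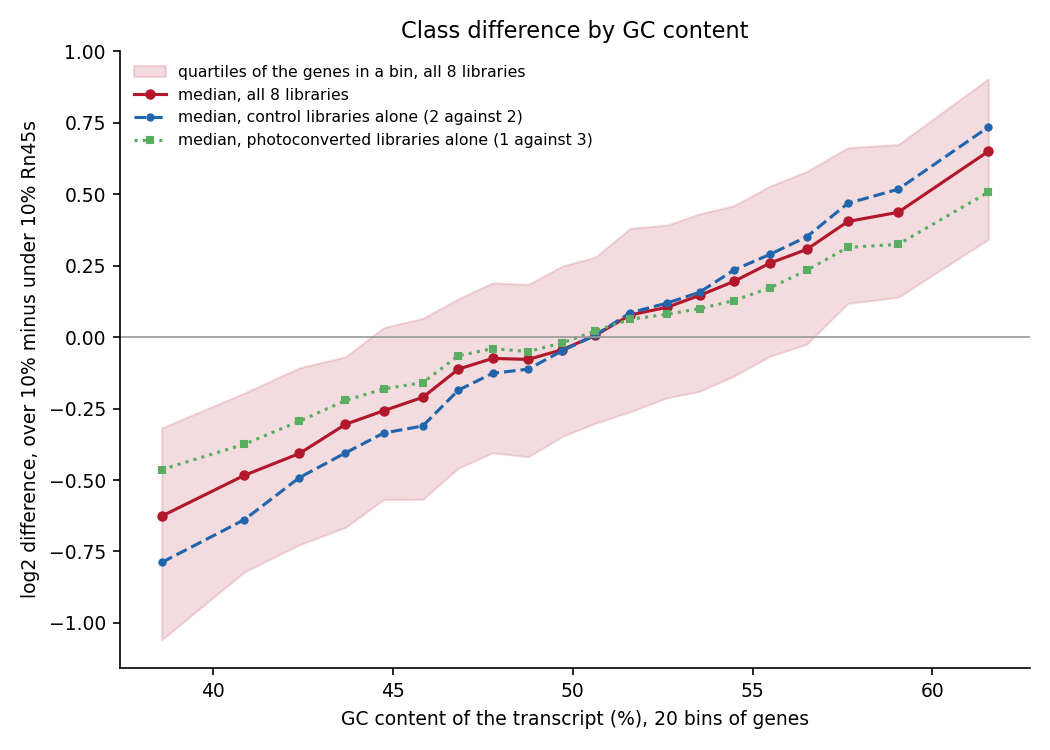
Median log2 difference between Rn45s-rich and Rn45s-poor libraries (y axis) in 20 bins of genes by transcript GC content in percent (x axis), with the quartiles of the bins shaded. The rise with GC was present in all 8 libraries together, in the control libraries alone and in the photoconverted libraries alone.

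When a smooth GC trend was removed from each library, 3158 of 14438 genes were called higher (21.9%) and 1326 lower (9.18%), so that 70.4% of calls were higher against 53.6% without this offset. Of the genes called higher without the offset, 2064 (62.9%) were still higher and 3 were lower. Of those called lower, 1102 (38.8%) were still lower and 40 were higher. The offset moved the median of all genes from -0.02 to 0.08. Values with this GC offset, which was added after the data were seen, are given below for some of the lists and genes whose calls changed. Counts of other lists changed as well. Interferon targets went from 4 higher and 5 lower to 6 and 1, and proteasome genes from 9 and 5 to 14 and 2. Respiratory chain genes went from 30 and 15 to 23 and 10. Glycolysis and hypoxia genes went from 5 and 3 to 2 and 2, and skeletal muscle markers from 1 and 6 to 0 and 8. Among the 108 genes named, 20 of 96 calls were lost with it and 5 were gained.

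Small structured RNAs showed some of the largest increases in the rich libraries. Rnu12, the U12 RNA of the minor spliceosome, stood at 20.8, 28.8 and 27.3 CPM in the rich libraries, given here and below in the order photoconverted tumor 4, control tumor 2 and control tumor 4. It stood at 5.45, 7.91, 6.68, 3.43 and 7.16 CPM in the poor libraries, given in the order photoconverted tumors 1, 2 and 3 and control tumors 1 and 3. The groups did not overlap, and the log2 difference was 2.09 ± 0.26 (standard error, adjusted p = 0.00113). Snord17 and Snord22 (C/D box) and Snora61, Snora23 and Snora64 (H/ACA box) rose by a similar amount, and with Rnu12 they are printed below as examples of both snoRNA classes and of the minor spliceosome with clear differences. Sequences are from GENCODE M21 (GRCm38, equal to the mm10 build named in the labels), 5′ to 3′ as DNA letters. Capitals mark the C box letters TGATGA when they start in the first 30 bases of a Snord sequence, the D box letters CTGA when they start in the last 15, and ACA when it starts in the last 8 bases of a Snora sequence, read on the transcript strand only.
Rnu12: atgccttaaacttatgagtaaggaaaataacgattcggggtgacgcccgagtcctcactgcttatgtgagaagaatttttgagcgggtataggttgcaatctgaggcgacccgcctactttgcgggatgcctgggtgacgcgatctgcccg
Snord17: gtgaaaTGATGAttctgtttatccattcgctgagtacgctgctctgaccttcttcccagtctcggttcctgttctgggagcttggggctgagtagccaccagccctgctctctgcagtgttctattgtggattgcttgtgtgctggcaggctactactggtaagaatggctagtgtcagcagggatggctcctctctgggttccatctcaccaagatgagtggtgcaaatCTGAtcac
Snord22: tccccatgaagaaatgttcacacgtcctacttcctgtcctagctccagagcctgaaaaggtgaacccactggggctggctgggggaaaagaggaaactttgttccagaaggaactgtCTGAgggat
Snora61: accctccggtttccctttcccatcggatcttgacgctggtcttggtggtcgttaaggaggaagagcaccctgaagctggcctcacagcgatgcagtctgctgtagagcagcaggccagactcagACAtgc
Snora23: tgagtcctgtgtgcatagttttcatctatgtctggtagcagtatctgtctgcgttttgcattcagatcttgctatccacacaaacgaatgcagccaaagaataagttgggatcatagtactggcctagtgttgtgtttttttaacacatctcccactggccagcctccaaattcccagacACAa
Snora64: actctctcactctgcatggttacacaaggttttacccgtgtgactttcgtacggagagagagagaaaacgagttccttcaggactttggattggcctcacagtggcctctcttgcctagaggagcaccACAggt
These letters were present in 39 of 62 tested Snord sequences (62.9%) for the C box, in 57 of 62 (91.9%) for the D box and in 31 of 33 tested Snora sequences (93.9%) for ACA. No C box letters of this exact form start in the window of Snord22.

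Rnu12 lies at chr15:83149644-83149794 (plus strand), Snord17 at chr2:144265979-144266216 (minus strand) in an intron of Snx5, and Snora23 at chr7:110046364-110046547 (plus strand) in an intron of Ipo7. Snord22 at chr19:8725866-8725991 (plus strand), Snora61 at chr4:132310240-132310369 (plus strand) and Snora64 at chr17:24720772-24720905 (plus strand) overlap annotated exons of Snhg1, Snhg12 and Rps2, so reads of host and small RNA may be shared there. Snord17 was measured at 345, 494 and 300.2 CPM in rich and 95.6, 147, 102, 74.3 and 98.6 CPM in poor libraries, which is 3.85-fold higher (log2 1.94 ± 0.23, adjusted p = 0.000981). Snora61 was at 22.9, 43.3 and 45.2 against 10.2, 11.5, 8.20, 8.02 and 8.15 CPM (log2 1.95 ± 0.25, adjusted p = 0.00113). The lowest rich library was above the highest poor one for both. Snord22 was at 88.7, 122 and 135 against 37.4, 50.3, 27.7, 22.3 and 31.5 CPM (log2 1.83 ± 0.26, adjusted p = 0.00137). Snora23 differed by 1.80 ± 0.26 and Snora64 by 1.60 ± 0.18 on the log2 scale (adjusted p = 0.00147 and 0.000981).

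As a class, 38 of 103 tested snoRNA and scaRNA genes were higher and 5 lower in the rich libraries, with a median log2 difference of 0.51 beside -0.02 for all genes. Of all genes, 22.5% were higher and 19.5% lower. H/ACA snoRNAs had 21 of 33 higher (63.6%) and 0 lower (median 0.85). C/D snoRNAs had 15 of 62 higher (24.2%, near the share of all genes) and 3 lower (4.84%, median 0.42). The remaining 60 snoRNA and scaRNA genes were not called. With the GC offset 24 C/D snoRNAs were higher and 0 lower, and 22 H/ACA snoRNAs were higher and 0 lower. These RNAs took 0.154% to 0.189% of counts in the rich libraries and 0.0837% to 0.106% in the poor ones. The 5 genes called lower, named after their values were seen, were Snord70 (-2.39), Snord47 (-1.43), Snord69 (-1.43), Scarna9 (-1.10) and Scarna10 (-0.87 on the log2 scale). All but Scarna10 lost the call with the GC offset, Snord70 and Snord69 were under 2 CPM in every library, and Snord70 had no count in control tumor 2. Scarna10, a guide RNA of Cajal bodies, was at 47.2, 22.9 and 36.4 CPM in rich against 68.9, 58.2, 67.3, 63.9 and 73.6 CPM in poor libraries, with no overlap. Among the other Cajal body RNAs, Scarna2 (1.17) and Scarna13 (0.91) were higher.

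snoRNA genes were set against the genes that host them on the same strand. Among 93 snoRNA and scaRNA genes with a tested host, the median log2 difference was 0.50, and that of the host values paired with them was 0.29. The small RNA exceeded its host in 59 of 93 pairs (63.4%), in 63 pairs in the control libraries alone and in 52 in the photoconverted libraries alone. The 93 pairs hold 68 different hosts, so that pairs with a common host are not independent. Of 33 small RNAs called higher, 13 had a host called higher, 3 a host called lower and 17 a host not called. The widest gap above a host was that of Snord22 (2.46 on the log2 scale), which overlaps an exon of its host Snhg1. Snhg1 was not called, at a log2 difference of -0.63 ± 0.27 (adjusted p = 0.0887, and -0.95 and called without control tumor 4). For Snord17 the host Snx5, a sorting nexin, stood at 0.04 (0.36 with the GC offset, adjusted p = 0.0174), and for Snora23 the host Ipo7, a nuclear import factor, stood at -0.23 (0.37 with the GC offset, adjusted p = 0.0283). Snora64 and its host Rps2, a protein of the small ribosomal subunit, were both higher (Rps2 log2 1.10 ± 0.14). Snord15a was also higher (1.57), with its host Rps3 at 0.29 (adjusted p = 0.0602, and 0.44 with the GC offset, adjusted p = 0.0196). Snhg12, the host of Snora61, stood at 0.41 (adjusted p = 0.0646, and 0.60 with the offset, adjusted p = 0.0182). In all, 47 of the 93 small RNAs overlap an annotated exon of the host, where reads of both cannot be told apart. For the 46 inside an intron, any reads of unspliced host RNA were not separated from those of the small RNA either.

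Of 15 tested snoRNA host genes and related noncoding RNAs, 7 were higher (46.7%, beside 22.5% of all genes) and 0 lower (median 0.42). Snhg20 was at 20.4, 23.2 and 21.1 against 10.6, 13.3, 10.6, 10.7 and 7.70 CPM (log2 1.08), Snhg8 rose by 0.92 and Dancr by 0.84. Mir6516, whose locus lies inside Snhg20, was higher by 1.79, and such counts in a total RNA library measure reads at the locus, not the mature microRNA.

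Among 7 tested small structured RNAs of polymerase III or similar size, 4 were higher (57.1%, beside 22.5% of all genes) and 0 lower. The other 3 were not called. Terc, the RNA component of telomerase, was at 105, 124 and 131 CPM in rich against 33.2, 54.2, 35.1, 26.6 and 31.1 in poor libraries (log2 1.82 ± 0.21, adjusted p = 0.000981). Vaultrc5, a vault RNA, was higher by 1.71 ± 0.37 (adjusted p = 0.00632) at 5.78 to 10.9 against 1.77 to 4.42 CPM. Rpph1 and Rmrp, the RNAs of the related ribonucleases P and MRP, had log2 differences of opposite sign. Rpph1 took 1.10%, 1.29% and 1.27% of counts in rich and 0.583% to 0.783% in poor libraries (log2 0.93 ± 0.15, adjusted p = 0.00198). Rmrp, which cuts the ribosomal precursor, took 0.331%, 0.240% and 0.344% in rich and 0.361% to 0.527% in poor libraries (log2 -0.40 ± 0.19, adjusted p = 0.113). In CPM, the scale of the log2 difference, the Rmrp groups overlapped, with 3696 in control tumor 4 (rich) and 3408 in control tumor 3 (poor). Both RNAs are rich in GC (67.1% and 63.7%), and with the GC offset Rpph1 stood at 0.11 (adjusted p = 0.629) and Rmrp at -1.04 (adjusted p = 0.0108). Rnu11, the U11 RNA that works beside U12, was at 2.01, 1.49 and 2.65 against 6.93, 3.33, 8.29, 3.13 and 3.71 CPM (log2 -1.06, adjusted p = 0.0530), opposite in sign to Rnu12 and not called. Rnu73b stood at -0.32 (adjusted p = 0.493).

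Of the genes listed because ribosomal RNA reads may land on them, 4 were tested and Lars2 alone was higher. Lars2, the mitochondrial leucyl-tRNA synthetase, was at 416, 501 and 522 CPM in rich and 151, 215, 182, 202 and 136 CPM in poor libraries (log2 1.43 ± 0.17, adjusted p = 0.000981), with no overlap. Zc3h7a was lower (-0.30, and 0.10 and not called with the GC offset), and Cdk8 (-0.26, adjusted p = 0.131) and Rn4.5s (-2.39, adjusted p = 0.0862) were not called.

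Proteins of ribosome synthesis were higher more often than lower in the rich libraries. Of 80 tested polymerase I and nucleolar assembly genes, 40 were higher, 5 lower and 35 not called (median 0.31, beside 22.5% and 19.5% of all genes). Rrp9, a U3 snoRNP protein, was at 172, 151 and 177 CPM against 88.5, 104, 90.5, 69.1 and 67.1 CPM (log2 1.10 ± 0.11, adjusted p = 0.000981). Noc2l, an assembly factor of the large subunit, was at 473, 449 and 516 against 258, 295, 244, 235 and 214 CPM (log2 0.99 ± 0.11). Rrp12 (0.84) and Bop1 (0.79), which act in export and large-subunit processing, were also higher. The 5 genes that were lower, named after their values were seen, were Nop10 (-1.19), a core H/ACA protein, Dimt1 (-0.63), an 18S methylase, Taf1d (-0.42), Nhp2l1 (-0.41) and Ddx52 (-0.39). With the GC offset 52 of the 80 were higher and 1 lower (median 0.42), and of these 5 only Nop10 was still called.

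Of 20 exosome and trimming genes, 8 were higher (40%, beside 22.5% of all genes) and 2 lower (10%, beside 19.5%), with a median of 0.09. With the GC offset 12 were higher and 0 lower (median 0.41). Exosc6, a ring subunit of the exosome, was at 90.2, 120.1 and 75.4 against 34.1, 47.6, 33.7, 28.2 and 29.7 CPM (log2 1.53 ± 0.19, adjusted p = 0.00109). Exosc2 (0.95), Exosc7 (0.91) and the precursor-cleavage factor Nol9 (0.74) were higher, whereas C1d (-0.59) and Eri1 (-0.38), named after their values were seen, were lower and not called with the GC offset. Myc, a transcription factor of ribosome synthesis genes, was at 212, 180.3 and 225 against 110.2, 145, 122, 87.9 and 81.5 CPM (log2 1.05 ± 0.14, adjusted p = 0.00126).

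**Figure D3:**
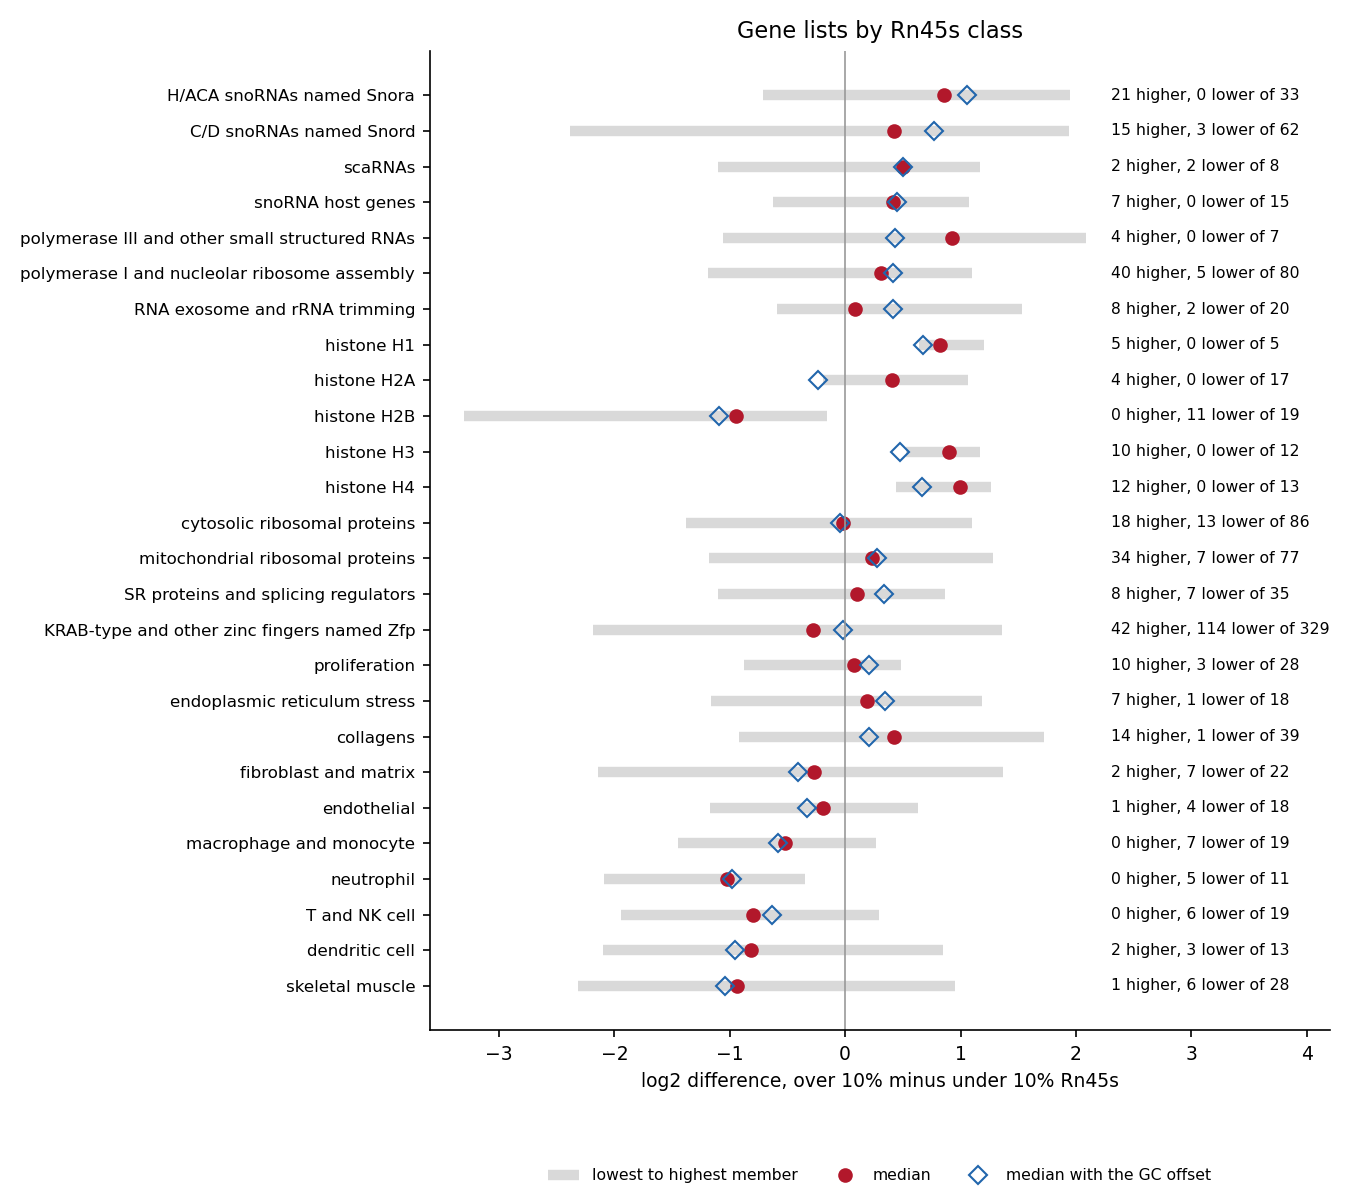
Gene lists (y axis) with the median log2 difference between Rn45s-rich and Rn45s-poor libraries (x axis, red), the same median with the GC offset (blue diamonds) and the range of the members without the offset (grey bars). Counts of genes called higher and lower of those tested stand at the right of the figure, where 21 of 33 H/ACA snoRNAs were higher and 11 of 19 H2B histones were lower.

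Cytosolic ribosomal protein genes did not stand out from other genes as a list. Of 86 genes 18 were higher (20.9%, beside 22.5% of all genes) and 13 lower (15.1%, beside 19.5%), with a median of -0.02 and with Rps2 at 3619, 3705 and 3591 CPM in rich and 1752, 2226, 1625, 1602 and 1563 CPM in poor libraries (adjusted p = 0.00109). Of 77 mitochondrial ribosomal protein genes 34 were higher and 7 lower (median 0.23), led by Mrpl12 at 129, 135 and 141 against 54.9, 80.7, 59.3, 47.6 and 51.0 CPM (log2 1.28 ± 0.15, adjusted p = 0.000981). Of 82 nuclear genes of the respiratory chain, 30 were higher and 15 lower (median 0.05), and of 27 translation factors 8 were higher and 2 lower (median near 0).

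Replication-dependent histone genes, whose messages end in a stem-loop in place of a poly(A) tail, differed by family. Of 66 tested genes 31 were higher and 11 lower, and the 11 were all H2B genes. H1 genes were higher in 5 of 5 (median 0.83), H3 genes in 10 of 12 (median 0.90) and H4 genes in 12 of 13 (median 0.99). H2A genes were higher in 4 of 17 (23.5%, near the 22.5% of all genes, median 0.41). In each of these families 0 genes were lower. The summed H1 and H4 levels of every rich library lay above all poor ones. Control tumor 2 had 5911 CPM of H2A, below the 6860 to 8653 CPM of the poor libraries. Its H3 sum of 13320 CPM lay inside their range of 8652 to 14140 CPM. Its histone share of 3.65% of counts without Rn45s also lay inside their 3.38% to 4.13%. H2B genes were lower in 11 of 19 and higher in 0 (median -0.94). Their sums overlapped, at 2322 to 5995 CPM in rich and 5528 to 8994 CPM in poor libraries, lowest in control tumor 2. For 6 of the 19 genes all rich libraries lay below all poor ones, as for 20.3% of all genes. With the GC offset the counts were 5 of 5 for H1, 5 of 12 for H3 (median 0.47) and 9 of 13 for H4 (median 0.67). Of all 66 genes, 22 were then higher and 12 lower. Hist2h3c1 and Hist2h3c2 had the same CPM in every library, and both are counted among the H3 genes. Each stood at 1.02, but at 1.15 and 0.59 with the offset, because their GENCODE transcripts have 48.8% and 60.2% GC. Hist1h1d was scored on a transcript of 7425 bases with 39.8% GC. Offset values of histone genes thus depend on the transcript taken for each gene. The split by family was made after the values were seen. Hist1h4c was at 2466, 2273 and 2628 against 994, 1454, 979, 922 and 1013 CPM (log2 1.24 ± 0.16, adjusted p = 0.00115), and Hist1h1d was at 1197, 946 and 1322 against 469.5, 633, 438, 510.4 and 489 CPM (log2 1.20 ± 0.16). Hist1h2be was at 139, 84.1 and 188 against 369, 216, 359, 417 and 295 CPM (log2 -1.30 ± 0.29, adjusted p = 0.00657).

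Hist1h2bl (-1.30) and Hist1h2bb (-0.98) were lower too, and with the GC offset 11 of 19 H2B genes were again lower (median -1.09). The H2A median turned to -0.24 with that offset, with 3 higher and 1 lower. Hist2h3b (1.17) lost its call (0.37, adjusted p = 0.178). Histone copies are nearly identical in sequence, so single members are uncertain where the counting could divide or drop their reads.

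**Figure D4:**
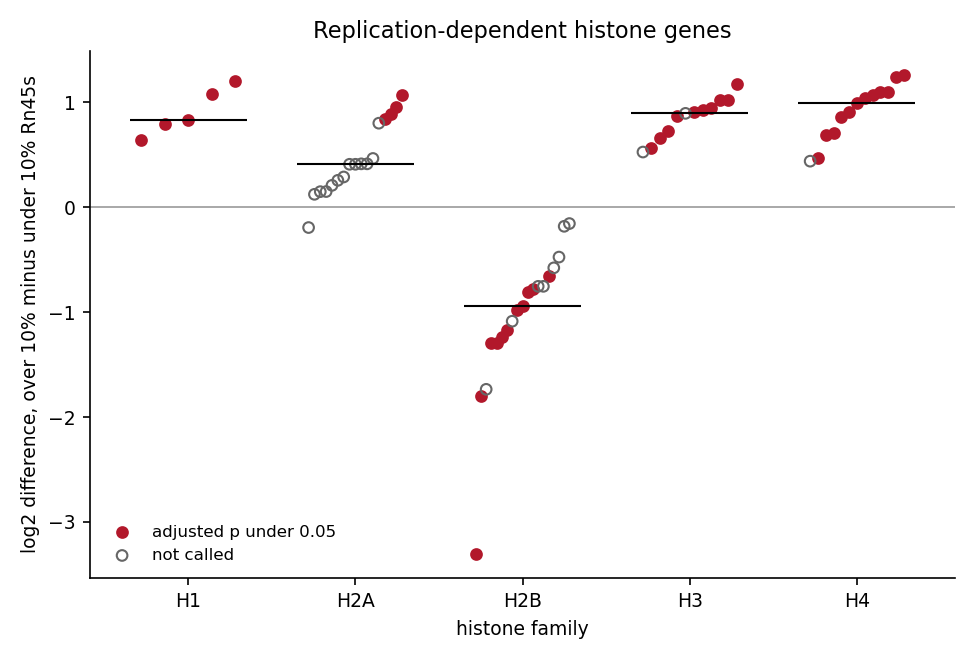
Log2 difference between Rn45s-rich and Rn45s-poor libraries (y axis) for each tested replication-dependent histone gene, by family (x axis), with filled points for an adjusted p under 0.05 and a line at the median. All 19 H2B genes lie below 0, from -3.30 to -0.16, whereas all H1, H3 and H4 genes lie above it.

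Of 35 SR proteins and splicing regulators 8 were higher and 7 lower (median 0.10), shares close to the 22.5% and 19.5% of all genes. With the GC offset 19 were higher and 1 lower (median 0.34). Hnrnpa2b1, an RNA-binding protein, was at 696, 746 and 705 against 399, 533, 354, 335 and 394 CPM (log2 0.87), and Srsf3, a splicing factor, was higher by 0.72. Of 40 large chromatin and transcription proteins 10 were higher and 15 lower (median -0.11), including Tet2, a 5-methylcytosine oxidase (-0.95), and Kmt2e (-0.89), a methyltransferase family member. With the offset 7 were higher and 7 lower (median -0.04). Zinc finger genes named Zfp were lower in 114 of 329 and higher in 42 (median -0.28), but with the GC offset in 30 lower and 48 higher (median -0.02). Zfp593, an assembly factor of the large ribosomal subunit, was against this direction at 1.06.

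Of 16 tested nuclear long noncoding RNAs, Xist and Tug1 were lower (12.5%) and Firre was higher (6.25%), with a median of -0.25. Both shares were below those of all genes (19.5% and 22.5%). With the GC offset 4 were higher and 0 lower (median 0.12), and with the replicate block the median was 0.30. Xist, which silences the inactive X chromosome, was at 63.2, 113 and 45.1 against 147, 115, 203, 170.0 and 140.2 CPM (log2 -1.12 ± 0.30, adjusted p = 0.0152), and Tug1 stood at -0.62 ± 0.12. Neither was called with the GC offset (Xist -0.56, adjusted p = 0.171, and Tug1 0.13, adjusted p = 0.284). Firre was higher by 0.39 ± 0.10.

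The lists of growth and stress genes stood near the shares of all genes (22.5% higher, 19.5% lower) except for the proliferation and endoplasmic reticulum stress lists, with more genes higher than lower, and heat shock genes, mostly not called. Of 28 proliferation genes 10 were higher and 3 lower (median 0.08), with Aurkb, a mitotic kinase, higher by 0.44 and Mki67, the Ki-67 antigen gene, lower at 241, 199.7 and 265 against 467, 338, 439.5, 463 and 436 CPM (log2 -0.88 ± 0.14, adjusted p = 0.00207). Of 18 endoplasmic reticulum stress genes 7 were higher, among them Hyou1 (0.83) and Creld2 (0.80), and Dnajb9 was lower (-1.16). Of 19 immediate early genes 4 were higher, Ier2 by 1.22, and 3 lower, among them Nr4a3 (-1.14). Of 21 interferon targets 4 were higher, Isg15 by 1.14, and 5 lower, among them Iigp1 (-1.23, and -0.55 and not called with the GC offset). Heat shock genes had 1 of 20 higher and 3 lower, glycolysis and hypoxia genes 5 of 20 higher and 3 lower, and proteasome genes 9 of 38 higher and 5 lower. Without photoconverted tumor 4 the median of immediate early genes went from -0.25 to 0.25 and that of heat shock genes from -0.19 to 0.14.

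Where markers of immune and stromal cells were called, most were lower in the rich libraries, and their counts stand beside the 19.5% of all genes called lower. In bulk tumors, fewer cells of a type and less RNA per cell cannot be told apart. Every immune, stromal and muscle marker in the table had counts in at least 1 library. Of 19 macrophage and monocyte markers 7 were lower and 0 higher (median -0.52), with a summed level of 1077 to 2466 CPM in rich and 1961 to 3041 CPM in poor libraries. Cd68, a macrophage lysosomal protein, was at 27.7, 23.9 and 27.4 against 65.9, 43.5, 89.7, 84.1 and 63.1 CPM (log2 -1.41 ± 0.23, adjusted p = 0.00201), and Ccr2, a monocyte chemokine receptor, was at 41.4, 31.4 and 24.7 against 68.9, 80.5, 92.2, 111 and 91.2 CPM (log2 -1.45 ± 0.20). The groups did not overlap for either gene. With the replicate block the median of the list was 0.22.

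Neutrophil markers were lower in 5 of 11 and higher in 0 (median -1.03), with a summed level of 59.5 to 72.5 against 83.3 to 226.7 CPM. Il1r2, a decoy interleukin-1 receptor, was at 4.26, 2.98 and 3.51 against 17.7, 14.9, 24.9, 11.3 and 10.8 CPM (log2 -1.93 ± 0.22, adjusted p = 0.000981). S100a8, a calprotectin subunit, was at 1.61, 0.372 and 1.72 against 12.03, 12.01, 21.2, 2.86 and 2.22 CPM (log2 -2.09), so that the control tumors of the poor class were close to the rich libraries. Csf3r, the G-CSF receptor, was lower as well (-0.87). Neither was called without photoconverted tumor 4 (-1.14 and -0.68), and S100a8 stood at -3.14 without control tumor 4. Serpinb2, a protease inhibitor, showed a like pattern at 2.57, 1.61 and 1.00 against 56.0, 24.1, 55.9, 8.41 and 2.96 CPM (log2 -3.22 ± 0.62, and -2.20 without photoconverted tumor 4).

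T and NK cell markers were lower in 6 of 19 and higher in 0 (median -0.80, summed 79.5 to 158.2 against 125.6 to 270.4 CPM), including the adhesion receptor Cd2 (-1.43) and the NK receptors Ncr1 (-1.30) and Klrb1c (-1.34). With the replicate block the list had a median of 0.67, and Cd2 was not called without photoconverted tumor 4 (-1.51) or control tumor 3 (-1.21). Of 13 dendritic cell markers 3 were lower (23.1%, near the share of all genes), with Cd209a at -2.10 and Ccr7 at -0.88. The 2 that were higher were Fscn1 (0.61) and Batf3 (0.84). The summed level of the list overlapped, at 953.5 to 1780 CPM in rich and 1148 to 1630 CPM in poor libraries. Cd209a was not called without photoconverted tumor 4 (-1.69), nor Ccr7 without control tumor 4 (-0.72). B and plasma cell markers had 1 of 5 higher and 0 lower.

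Fibroblast and matrix markers were lower in 7 of 22 and higher in 2 (median -0.27, and 0.25 with the replicate block). Their summed level ran from 8852 to 22770 CPM in rich and from 10280 to 12160 CPM in poor libraries, highest in control tumor 2. Dcn, the proteoglycan decorin, was at 40.8, 46.6 and 31.8 against 163, 103, 255, 243 and 104 CPM (log2 -2.13 ± 0.36, adjusted p = 0.00240), and the matrix genes lumican (Lum) and periostin (Postn) were lower (-2.14 and -1.04). Ogn, a related proteoglycan named osteoglycin, had the largest decrease among genes named by size, at 1.29, 1.49 and 1.94 against 14.7, 7.58, 28.5, 41.0 and 12.9 CPM (log2 -3.86 ± 0.61, adjusted p = 0.00178). Chrdl1, a BMP antagonist, was also lower (-3.27). Without control tumor 1 Ogn stood at -3.26 and Chrdl1 at -2.59. The 2 higher markers, named after their values were seen, were Col1a1 (1.37) and Col5a1 (0.83). Col1a1, a chain of type I collagen, was at 1499, 5337 and 1275 CPM in rich and 854, 1120, 1105, 894 and 869.8 CPM in poor libraries, and without control tumor 2, the highest library, it stood at 0.53 (adjusted p = 0.0104). Without control tumor 1 or control tumor 3 neither gene was called, nor was Col1a1 without photoconverted tumor 1. Collagen genes as a list had 14 of 39 higher (35.9%, beside 22.5% of all genes), with Col5a3 at 1.07 and Col16a1 at 0.81, and 1 lower. With the GC offset 3 were higher and 1 lower, and all 4 collagens named here lost the call.

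Skeletal muscle, a tissue that lies beneath a subcutaneous tumor, had markers that were lower in 6 of 28 (21.4%, near the share of all genes) and higher in 1 (median -0.93, summed 462.5 to 945.4 against 911.1 to 3644 CPM). The median was -0.31 in the control libraries alone, where the sums of 945.4 and 462.5 CPM in rich libraries overlapped those of 911.1 and 1138 CPM in poor ones, and -2.07 in the photoconverted libraries alone. Neb, nebulin, was at 13.7, 22.7 and 11.0 against 46.6, 61.3, 142, 41.3 and 50.5 CPM and Tnnt3, a troponin, was lower (-1.76), and neither was called without photoconverted tumor 4 (-1.49 and -1.15). The part of muscle in the class difference was not tested. Adipocyte markers had 2 of 12 lower, keratinocyte markers 1 of 9, endothelial markers 4 of 18 and 1 higher (median -0.19, and 0.44 with the block), and pericyte markers 2 of 12, all near or below the share of all genes. Red cell genes were not called, and Hba-a1 ran at 104, 676 and 92.3 against 277, 255, 685, 47.9 and 55.5 CPM and Hbb-bt at 51.5, 339 and 45.9 against 128, 103, 283, 19.1 and 25.1 CPM, high in control tumor 2 and photoconverted tumor 3, with groups that overlapped. Without photoconverted tumor 4 both were called higher (2.89 and 3.12). The red cell list had a median of 1.48, but -0.40 without control tumor 2 and -1.93 in the photoconverted libraries alone.

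The genes named by size among those called, with an average log2 CPM of at least 2 and no overlap, also included Spata5l1 (1.80), Ccdc85b (1.80) and the Mir5132 locus (1.75) on the higher side. On the lower side, 5 were members of an X-linked multicopy family. Ott and Gm15085 had the same counts in every library, at 3.37, 3.60 and 11.0 against 62.5, 15.9, 39.4, 66.2 and 44.3 CPM (log2 -3.09), and Gm15080 (-3.55), Gm15093 (-3.05) and Gm15127 (-3.02) ran with them. Without control tumor 4 Ott and Gm15085 stood at -3.72, Gm15080 at -4.66 and Gm15093 at -4.03. Near-identical copies can share reads, so the 5 are uncertain as single genes. Gm6377 (-2.80, and -3.80 without photoconverted tumor 4) and the Mir684-1 locus (-2.87) were lower too.

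**Figure D5:**
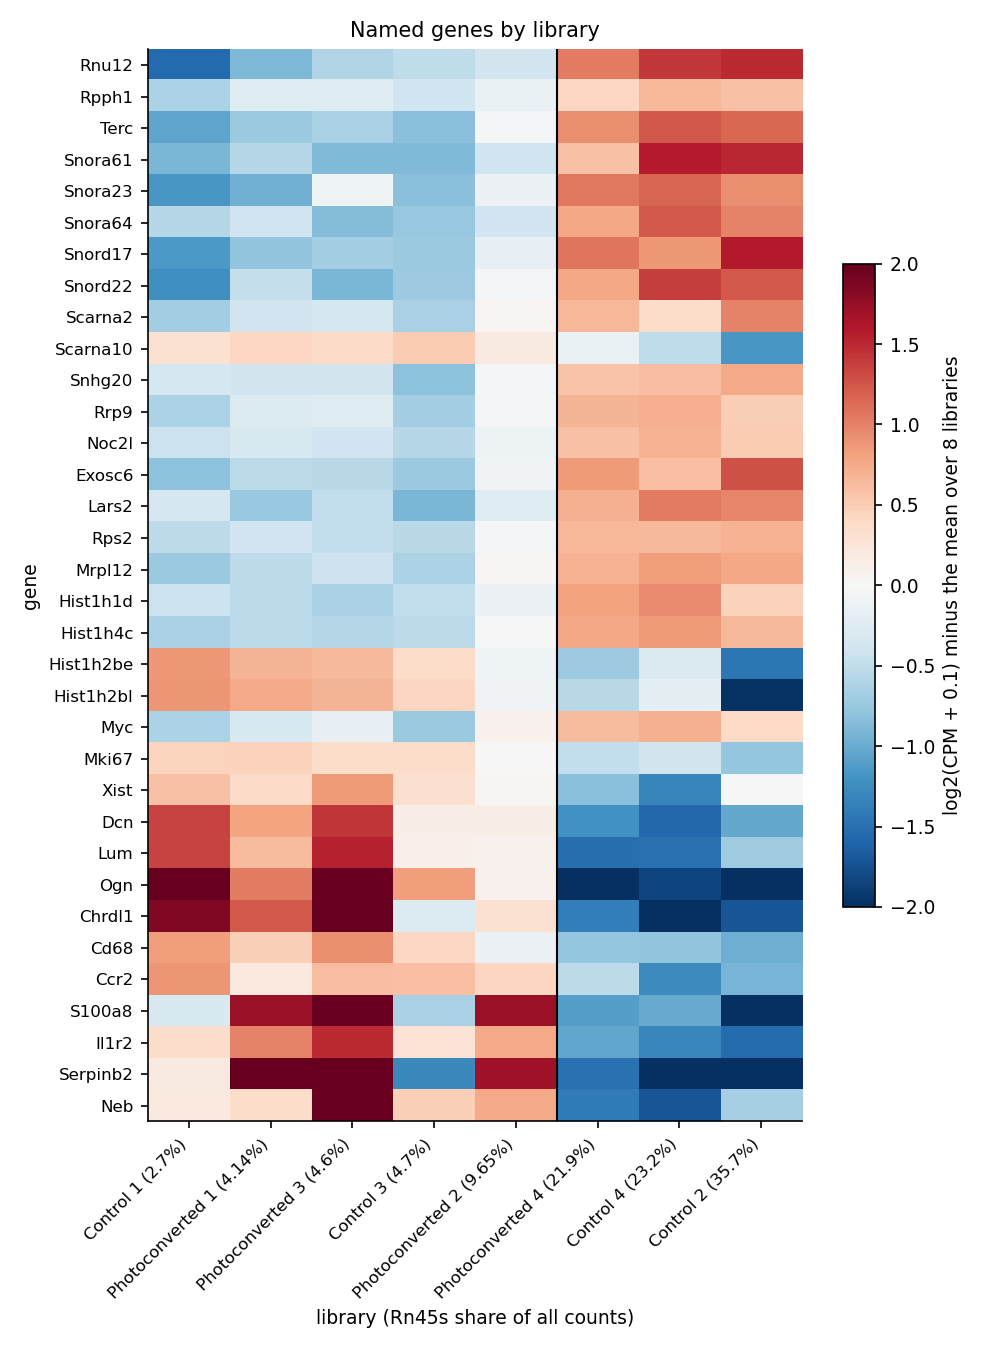
Level of 34 named genes (rows) in the 8 libraries (columns, in order of Rn45s share), colored by log2(CPM + 0.1) minus the mean over the libraries, with a line between the poor and rich classes. The 3 columns at the right hold the highest values for the upper small RNA and ribosome rows other than Scarna10 and the lowest for Dcn, Lum, Ogn, Cd68, Ccr2 and Il1r2, and photoconverted tumor 2 at 9.65% often lies nearest to them.

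Light was fitted in the same model. With the Rn45s class as covariate edgeR called 0 of 14577 genes (0%) by light, while 689 had p under 0.05 before adjustment, and the smallest adjusted value was 0.982. DESeq2's Wald test called 22 genes, 20 of them higher in photoconverted tumors, and limma called 0. Without the class as covariate edgeR called 0 genes by light, with 331 at an unadjusted p under 0.05. Without photoconverted tumor 4, the only Rn45s-rich library of its light group, 26 genes were called by light, all higher in photoconverted tumors.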

How the data were processed

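Bulk RNA from 4 photoconverted and 4 control tumors was sequenced. Raw counts of reads for 24421 gene symbols were deposited by the authors with a table of normalized signal values for 19823 genes, which are counts divided by size factors. The submitters' processing notes name CASAVA, FastQC, Trim Galore, HISAT2, featureCounts, DESeq2 and the mm10 build, while versions, annotation and strand setting are not given in the sources used here. Groups came from the sample labels, which do not say how replicates were taken, so p-values measure the spread between these libraries.

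Columns were divided by the Rn45s share of the total count at 0.10. The libraries, the lists and the alternatives were chosen with earlier results of these data known. Raw counts without Rn45s were fitted with edgeR 4.0.16 in R 4.3.3 (TMM, filterByExpr by light group, glmQLFit and glmQLFTest with light and class, Benjamini-Hochberg adjustment over 14577 genes, threshold 0.05). Standard errors were the log2 difference divided by the square root of F. CPM values used the same normalization. Alternatives used DESeq2 1.42.0 and limma 3.58.1. GC content, length, position and sequence came from GENCODE M21 (GRCm38), found for 14439 tested genes (99.1%). The GC offset was a loess fit (span 0.3) per library. The edgeR fit of class and light was also run on simulated counts with known changes. These had no GC trend and no replicate structure, so that run does not address either feature.

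Named genes were (a) the tested genes of the ribosomal and small structured RNA lists, (b) up to 10 genes a direction with the largest difference among those called, with an average log2 CPM of at least 2 and no overlap, and (c) up to 4 genes of each list with the smallest p, plus (d) genes called by light, of which there were none. Host genes and lower members of the small RNA, assembly, trimming and collagen lists were added after their values were seen. No mitochondrially encoded RNA was in the table. Same-numbered libraries deviated together from their light group means (r = 0.592, 0.106, 0.400 and 0.620 across genes for numbers 1 to 4), but 3 of the 4 numbers hold libraries of 1 class. After the class was fitted, r was 0.112, 0.156, -0.379 and -0.0856. The labels state no pairing.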

Additional observations from a re-analysis of the deposited data

Results flagged for a closer look

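Libraries that stood far from the rest of their class or light group by Dixon's test were examined over 158 sets of values for 5 poor libraries or 4 libraries of a light group, and chance flags about 1 in 20 such sets. Photoconverted tumor 2 stood apart from the other 4 poor libraries in its share of counts on histone genes (4.13%, nearest 3.59%). It also did so for Ccdc85b (27.6 CPM, nearest 17.2), the Mir6516 locus (53.8 CPM, nearest 29.0), Hist1h4c (1454 CPM, nearest 1013), Rps2 (2226 CPM, nearest 1752), Mki67 (338 CPM, nearest 436) and Dnajb9 (11.2 CPM, nearest 14.1), each time toward the rich libraries. Among the poor libraries, photoconverted tumor 3 was apart for Neb (142 CPM, nearest 61.3), and control tumor 1 for Ccr7 (17.2 CPM, nearest 10.7) and Firre (41.5 CPM, nearest 38.1). Among photoconverted libraries, tumor 4 was apart in its TMM factor (0.953, nearest 1.00), in genes with a count (16940, nearest 18530) and in its Rpph1 share (1.10%, nearest 0.783%), and among controls tumor 4 was apart in its histone share (5.66%, nearest 3.65%).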

How the results depend on the processing

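The count of genes called between Rn45s-rich and Rn45s-poor libraries (6117) ran from 4389 to 6428 when 1 library was left out. It was 2428 in the control libraries alone, 15 in the photoconverted ones alone and 32 with the GC offset and the replicate block together. With the replicate block alone it was 229, of which 34.1% were higher against 53.6% without the block. Other tests, normalizations, filters and covariates gave 4484 to 6676 calls. By light, edgeR's 0 calls became 22 with DESeq2, and 0 to 26 when 1 library was left out, with the 26 found without photoconverted tumor 4. Of 108 genes named, 96 were called, 13 of these also with the block and 76 also with the GC offset, and leaving out 1 library lost at most 16 calls (without photoconverted tumor 4). Beside those given above, Snord70, Snord47, Snord69, Hist1h2bl, Hist1h2bb, Dimt1, Taf1d, Nhp2l1, Ddx52, Eri1, Xist, Firre and Zc3h7a each lost the call without at least 1 library, Rmrp (-0.57) and Rnu11 (-1.45) gained it without control tumor 4, and Vaultrc5 stood at 2.37 without photoconverted tumor 4. Signs of genes called in either of the fits compared turned with the GC offset for Zc3h7a (0.10, and 0.0908 with length), Ipo7 (0.37 and 0.37), Tug1 (0.13 and 0.13), Dimt1 (0.0539 and 0.13), Taf1d (0.13 and 0.25), C1d (0.26 and 0.37) and Eri1 (0.0477 and 0.0366). With the block Cd2 stood at 0.10 and Xist at 0.23. With offset and block together the turned values were 0.15 for Zc3h7a, -0.64 for Hist2h3b, 0.52 for Iigp1, 0.12 for Postn, 0.0768 for Cd2, 0.69 for Xist, 0.30 for Tug1, 0.15 for Taf1d and 0.29 for C1d. Of genes not called in the fits compared, Rnu73b stood at 0.43 with the offset and 0.78 with the block, and Rn4.5s at 0.38 with the block. Medians of 26 of 50 lists changed sign with the block, among them T and NK cell (0.67), dendritic cell (0.40), macrophage (0.22), fibroblast (0.25), endothelial (0.44), interferon (0.21), immediate early (0.56), assembly (-0.05), exosome (-0.21), H2A (-0.53) and H3 (-0.13) lists. The GC offset changed 7 of the 50 signs, and leaving out 1 library changed 2 to 7, with the 7 found without photoconverted tumor 4. Offset and block together changed 25, among them that of H1 (-0.067). The cause was not tested. With all counts as the denominator, the rich minus poor difference was 0.0337 percentage points for snoRNAs (0.0751 without Rn45s), 0.223 for Rpph1 (0.518), 0.223 for histones (1.30) and -1.03 for ribosomal proteins (0.0565), as the construction of that denominator implies. The photoconverted contrast rests on 1 rich library, assumed to vary like the others, and the shallow rich libraries limit genes under about 2 CPM.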
